A study of Mus musculus with 12 samples.

Results

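The genes that make, hold back and receive transforming growth factor beta (TGF-beta) were followed in mouse lung fibroblasts. They are the ligands Tgfb1, Tgfb2 and Tgfb3, the receptors Tgfbr1, Tgfbr2 and Tgfbr3, and the latent TGF-beta binding proteins Ltbp1, Ltbp2, Ltbp3 and Ltbp4. These 10 genes were chosen by name from the 17097 genes with a named probe set, and all 10 were among the 11073 genes tested. Of their 19 probe sets, the one with the highest mean signal stood for each gene and any others served as a check. Tgfb1, Tgfb2, Tgfb3, Ltbp2 and Ltbp4 had 1 probe set each and so had no such check. The cells came from mice with a GFP reporter of the PDGF receptor alpha gene (Pdgfra) and were sorted into a GFP-bright and a GFP-dim subset, with 2000 cells per sample. The groups were PNX-dnFGFR, PNX and SHAM, each as bright and as dim cells, with 2 arrays in each of the 6 groups and all lungs taken at day 5. PNX animals had part of the lung removed, after which the rest regrows. PNX-dnFGFR animals had the same operation and also expressed a dominant-negative form of FGF receptor 2, whose driving promoter is not stated in the labels. SHAM animals had the surgical trauma without removal of lung. The labels state no strain, no age and no number of animals per sample. No group carried the dominant-negative receptor without pneumonectomy, so its effect apart from the operation cannot be told here.

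TGF-beta is secreted as a latent complex, in which the cleaved propeptide stays wrapped around the ligand. Most latent complexes are bound covalently to an LTBP, which anchors them in the extracellular matrix until integrins or proteases release the ligand. Released ligand binds the type II receptor, which recruits and activates the type I receptor, and the type I receptor phosphorylates Smad2 and Smad3. In the lung the pathway is known for its part in alveolar septation, in myofibroblast differentiation and in fibrosis.

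Values are log2 signals, so a difference of 1 is a doubling, and array medians lay between 5.06 and 5.13. A gene was called changed where its adjusted p was below 0.05. Whether arrays overlapped is given as description only, since the share of all genes without overlap was not counted. Levels of different genes were not compared, because each probe set has its own response. The RNA came from whole sorted samples, in which fewer cells of a type and less RNA per cell cannot be told apart. Pdgfra itself was lower on the arrays labelled bright, at 4.84 to 5.54 against 6.66 to 7.13 on those labelled dim (-1.75 ± 0.10 SE, adjusted p = 9.9e-07), opposite to the order in the names of the gates. All directions between bright and dim below therefore rest on the labels. The bright values of Pdgfra lie around log2 5.1, the filter on low signals, and 1 probe set stood for the gene. The summed linear signal of 6 fibroblast markers was 14916 to 16641 on bright and 8446 to 9732 on dim arrays. Epithelial markers summed to 3809 to 9017 on bright and 4453 to 9627 on dim arrays, and macrophage and dendritic markers to 1360 to 1895 on bright and 1483 to 3308 on dim arrays. Lymphocyte markers summed to 115 to 180 on bright and 188 to 271 on dim arrays. Mesothelial markers summed to 158 to 1151 on bright and 105 to 343 on dim arrays, with 2 of 4 tested higher in bright cells, 0 lower and a median difference of 1.70. Endothelial markers summed to 400 to 686 on bright and 342 to 668 on dim arrays (1 higher and 3 lower of 7 tested). Smooth muscle and pericyte markers summed to 221 to 314 on bright and 194 to 266 on dim arrays (1 higher and 1 lower of 3 tested), and platelet markers to 160 to 226 on bright and 137 to 176 on dim arrays (1 higher and 0 lower of 3 tested). Of the lists above, the fibroblast list had 5 higher and 1 lower of 6, the epithelial list 0 of 8 either way, the macrophage and dendritic list 2 lower of 8 and the lymphocyte list 2 lower of 3. The part of these other cell types in the differences between the subsets was not tested.

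Bright and dim fibroblasts differed in most of the TGF-beta genes. As the mean over the 3 conditions, 9 of 10 members passed the test, 4 of them higher and 5 lower in bright cells, where 47.8% of all genes tested passed (28.5% higher and 19.3% lower). The ligands Tgfb2 and Tgfb3 and the binding protein Ltbp2 were more than 2 log2 higher in bright cells. The 3 receptors, Ltbp1 and Ltbp4 were lower by less than 1 log2, Ltbp3 was slightly higher, and Tgfb1 did not pass. The median size of the difference, sign aside, was 0.48 over the members and 0.30 over all genes tested.

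**Figure D1:**
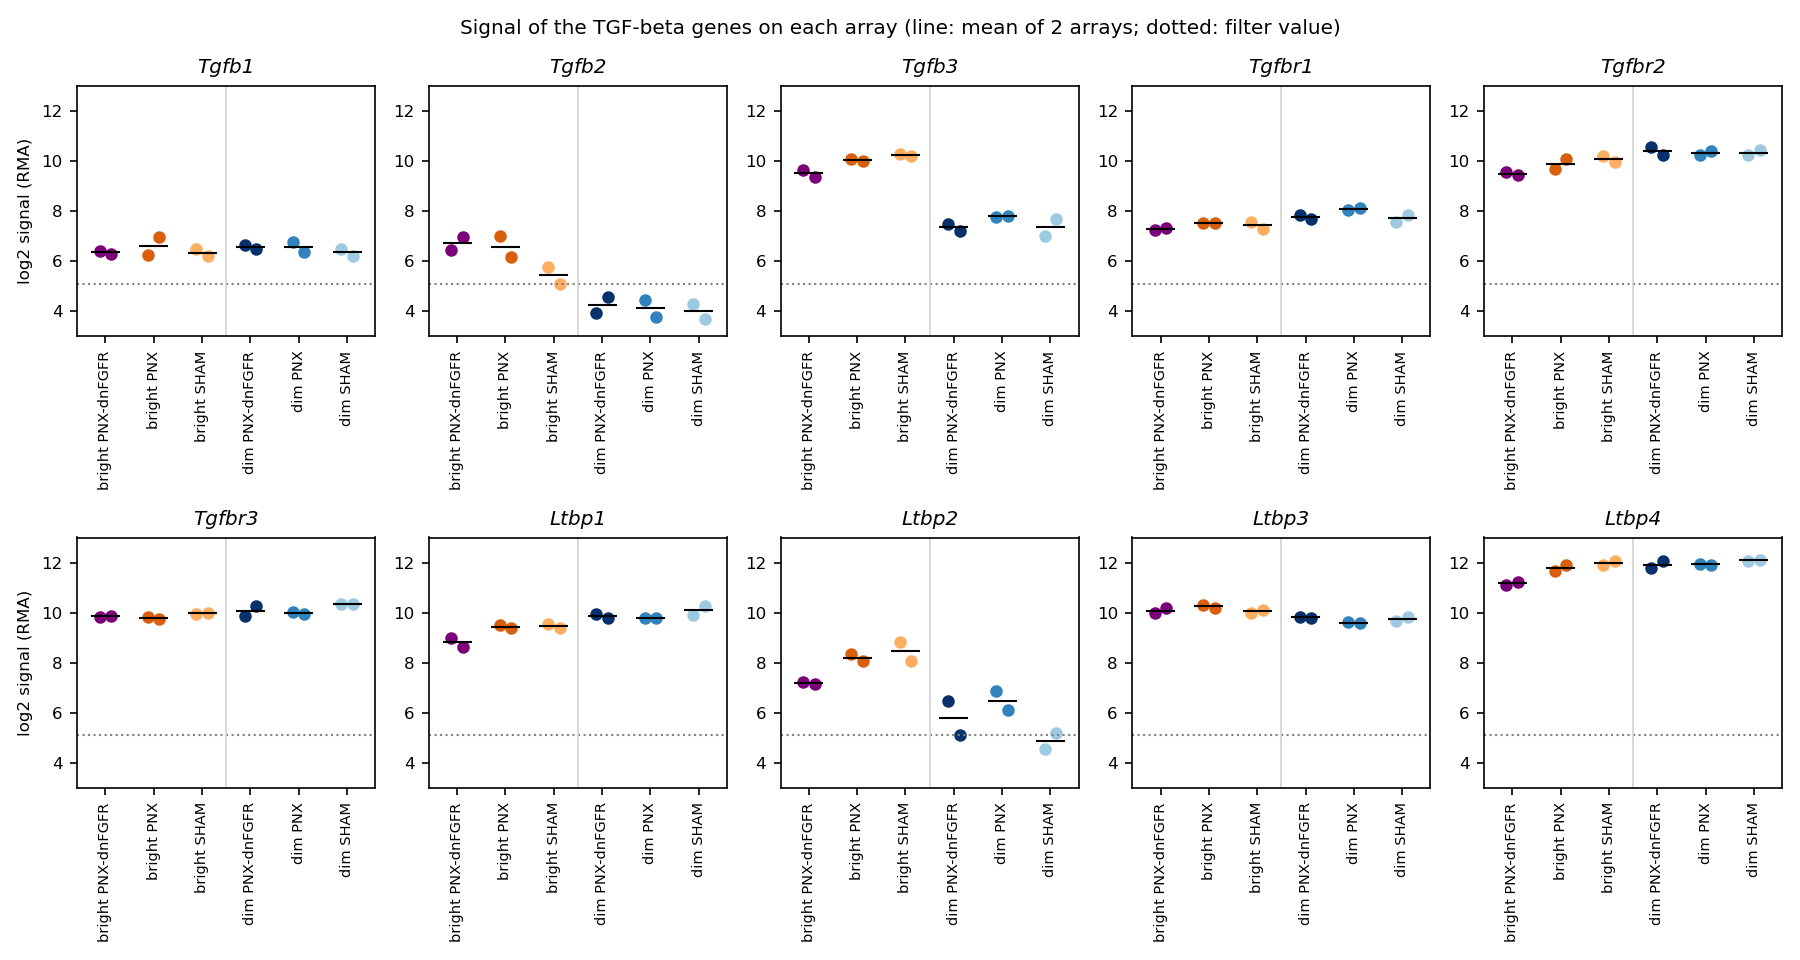
Log2 signal of the 10 TGF-beta genes on each of the 12 arrays, with bright groups left of dim groups and PNX-dnFGFR, PNX and SHAM in that order within a subset; points are arrays and bars are means of 2. Tgfb2, Tgfb3, Tgfbr2, Ltbp1, Ltbp2 and Ltbp3 separate bright from dim arrays without overlap, whereas Tgfb1 lies between 6.19 and 6.98 on all 12.

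Tgfb3 encodes the ligand known in mice for its role in palate fusion and in lung maturation. Its log2 signal was 9.66 and 9.38 in bright PNX-dnFGFR cells, 10.09 and 9.99 in bright PNX cells and 10.27 and 10.19 in bright SHAM cells. The dim cells had 7.49 and 7.21 in PNX-dnFGFR, 7.77 and 7.82 in PNX and 7.02 and 7.69 in SHAM. Every bright array was above every dim array, with the bright SHAM arrays highest and the bright PNX-dnFGFR arrays lowest among the bright. Tgfb3 averaged 9.93 ± 0.34 in bright and 7.50 ± 0.33 in dim cells (SD, n = 6 each), a difference of 2.43 ± 0.12 SE (adjusted p = 6.5e-07). Only 2.34% of the genes tested had a larger difference in either direction. The difference passed in each condition. It was 2.17 in PNX-dnFGFR (adjusted p = 0.00011), PNX had 2.24 (adjusted p = 0.00015) and SHAM had 2.88 (adjusted p = 3.6e-05).

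Tgfb2 encodes the ligand that depends most on betaglycan for binding to the signalling receptors. Its signal was 6.46 and 6.97 in bright PNX-dnFGFR cells, 7.0 and 6.16 in bright PNX cells and 5.77 and 5.10 in bright SHAM cells. On the 6 dim arrays it lay between 3.68 and 4.56, with a median of 4.11, below the log2 5.1 used as the filter on low signals. Bright and dim arrays did not overlap, and the bright PNX-dnFGFR and bright PNX arrays overlapped each other and lay above both bright SHAM arrays. The means were 6.24 ± 0.73 in bright and 4.11 ± 0.38 in dim cells (SD over 6 arrays each, the 3 conditions pooled), a difference of 2.13 ± 0.23 SE (adjusted p = 6.5e-05). With signals below the filter set to the filter, the difference was 1.14 (adjusted p = 0.00064). Within conditions PNX-dnFGFR had a difference of 2.47 (adjusted p = 0.0014), PNX of 2.48 (adjusted p = 0.0024) and SHAM of 1.44 (adjusted p = 0.033). The SHAM difference did not pass with low signals set to the filter (0.33, adjusted p = 0.50). Leaving out bright SHAM replicate 1 gave 1.11 (adjusted p = 0.18), and leaving out dim SHAM replicate 2 gave 1.13 (adjusted p = 0.17).

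Tgfb1, the most widely expressed ligand of the family, had a signal of 6.42 and 6.29 in bright PNX-dnFGFR, 6.25 and 6.98 in bright PNX and 6.47 and 6.19 in bright SHAM cells. The dim cells had 6.64 and 6.47 in PNX-dnFGFR, 6.75 and 6.38 in PNX and 6.49 and 6.22 in SHAM. All neighbouring groups overlapped when ordered by their means. The difference between bright and dim cells was -0.06 ± 0.14 SE (95% interval -0.37 to 0.26, adjusted p = 0.76).

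**Figure D2:**
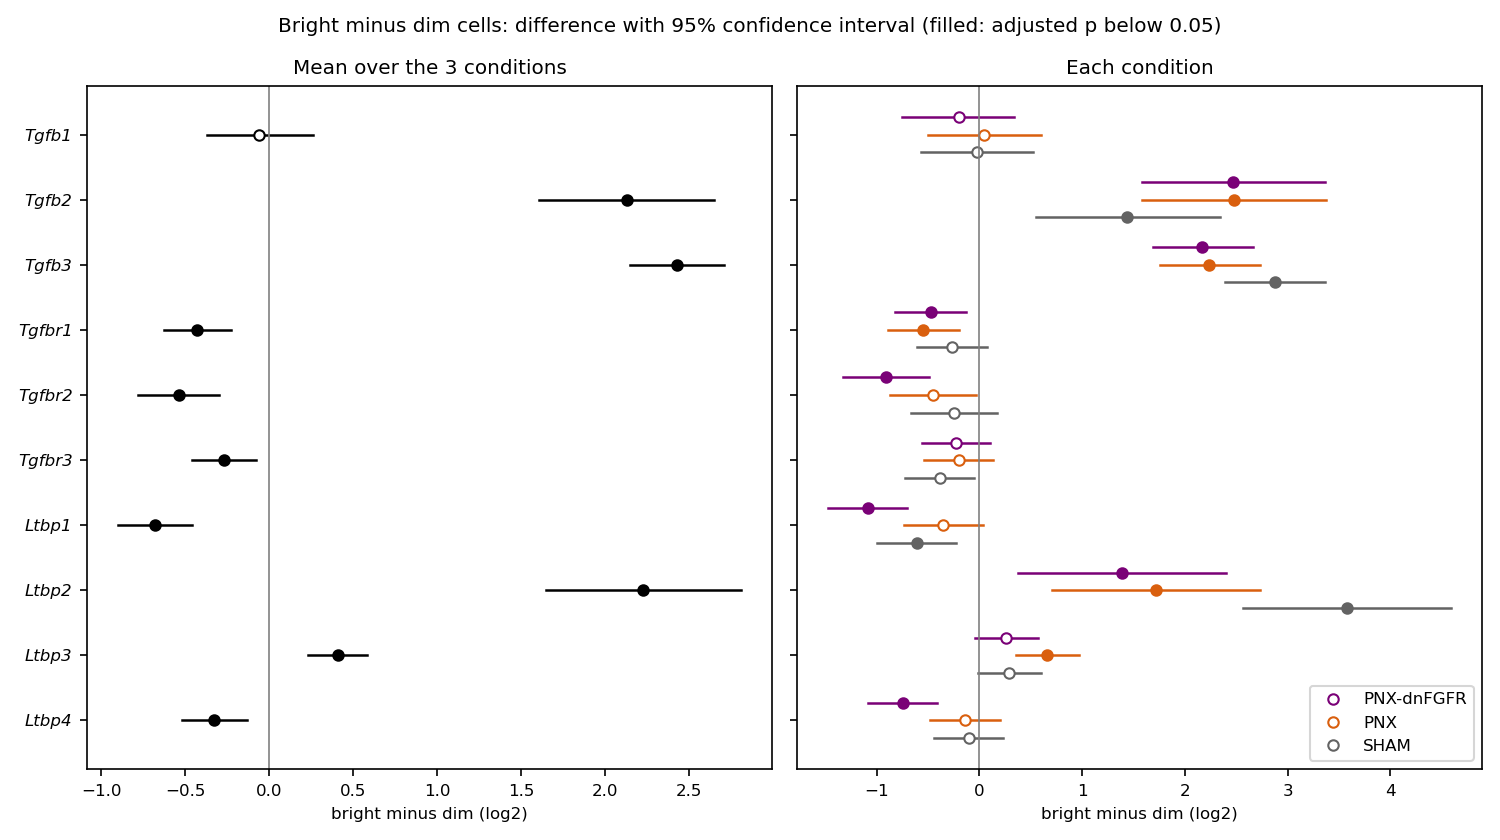
Difference in log2 signal between bright and dim cells for each TGF-beta gene, within each condition and as the mean over conditions, with 95% intervals; filled symbols have an adjusted p below 0.05. The intervals of Tgfb2, Tgfb3 and Ltbp2 lie to the right of 0 in each condition, and the interval of Tgfb1 spans 0 in each.

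The receptors were lower in bright cells. Tgfbr2, the type II kinase receptor that binds the ligand, had 9.55 and 9.43 in bright PNX-dnFGFR, 9.67 and 10.09 in bright PNX and 10.21 and 9.95 in bright SHAM cells, against 10.24 to 10.55 (median 10.34) over the 6 dim arrays. The bright and dim arrays did not overlap, and the difference was -0.54 ± 0.11 SE (adjusted p = 0.0027). In PNX-dnFGFR it passed on its own (-0.91, adjusted p = 0.0049), whereas PNX had -0.45 (adjusted p = 0.13) and SHAM -0.25 (adjusted p = 0.40). Of its other probe sets, 1 gave -0.67 over the conditions (adjusted p = 0.0041) and, for PNX-dnFGFR alone, -1.16 (adjusted p = 0.0063), and 1 that was above the filter on 0 arrays gave -0.03 over the conditions (adjusted p = 0.82).

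Tgfbr1, the type I kinase receptor also called ALK5, had 7.25 to 7.58 (median 7.42) on bright and 7.57 to 8.11 (median 7.85) on dim arrays. These ranges overlapped at their edges, with bright SHAM replicate 1 at 7.58 and dim SHAM replicate 1 at 7.57. The difference was -0.43 ± 0.09 SE (adjusted p = 0.0032), and the other probe sets gave -0.41 (adjusted p = 0.045) and -0.32 (adjusted p = 0.11). PNX-dnFGFR gave -0.47 (adjusted p = 0.039), PNX gave -0.55 (adjusted p = 0.035), and SHAM, which did not pass, -0.27 (adjusted p = 0.26). Neither call within a condition held in the other probe sets. These gave -0.02 (adjusted p = 0.96) and -0.36 (adjusted p = 0.30) in PNX-dnFGFR, and -0.50 (adjusted p = 0.22) and -0.29 (adjusted p = 0.48) in PNX. With averaged probe sets PNX-dnFGFR had -0.29 (adjusted p = 0.26) and PNX -0.45 (adjusted p = 0.13), and the fit on the groups compared alone had an adjusted p of 0.061 for PNX-dnFGFR and 0.097 for PNX. Leaving out any array of the condition itself ended the PNX call (adjusted p = 0.085 to 0.16) and the PNX-dnFGFR call (adjusted p = 0.071 to 0.16). So did leaving out either bright PNX-dnFGFR array for PNX (adjusted p = 0.056) and either dim PNX array for PNX-dnFGFR (adjusted p = 0.056).

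Tgfbr3 encodes betaglycan, a coreceptor that presents ligand to the type II receptor. It had 9.75 to 9.99 (median 9.85) on bright and 9.87 to 10.36 (median 10.15) on dim arrays, and the ranges overlapped. The difference of -0.27 ± 0.09 SE passed (adjusted p = 0.026), but none of its differences within a condition did (adjusted p = 0.26 in PNX-dnFGFR, 0.39 in PNX and 0.11 in SHAM). Its other probe set gave -0.17 (adjusted p = 0.29), and with the mean of the probe sets the difference was -0.22 (adjusted p = 0.058). Without any of 7 single arrays the adjusted p lay between 0.051 and 0.064, namely either bright PNX-dnFGFR array, dim PNX-dnFGFR replicate 2, bright PNX replicate 2, dim PNX replicate 1 or either bright SHAM array.

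Among the latent TGF-beta binding proteins, bright cells had more Ltbp2 and Ltbp3 and less Ltbp1 and Ltbp4. Ltbp2 differs from the others in that it does not bind latent TGF-beta and is known as a microfibril protein. Its signal was 7.21 and 7.13 in bright PNX-dnFGFR cells, 8.33 and 8.07 in bright PNX cells and 8.84 and 8.05 in bright SHAM cells. The dim cells had 6.45 and 5.11 in PNX-dnFGFR, 6.87 and 6.09 in PNX and 4.54 and 5.18 in SHAM. Every bright array was above every dim array, and the distance was widest in SHAM. The means were 7.94 ± 0.66 in bright and 5.71 ± 0.90 in dim cells (SD over 6 arrays each, the 3 conditions pooled), a difference of 2.23 ± 0.26 SE (adjusted p = 1e-04). By condition, PNX-dnFGFR had a difference of 1.39 (adjusted p = 0.039), PNX of 1.72 (adjusted p = 0.026) and SHAM of 3.58 (adjusted p = 0.00062). Without dim PNX-dnFGFR replicate 2, the PNX-dnFGFR difference was 0.72 (adjusted p = 0.25). Leaving out bright PNX-dnFGFR replicate 1 gave an adjusted p of 0.14 for it, and leaving out bright replicate 2 one of 0.12. With the groups compared alone it was 0.061. For Ltbp2 in PNX the adjusted p was 0.12 with bright replicate 1 left out, 0.061 with bright replicate 2 left out and 0.17 with dim replicate 2 left out.

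Ltbp1, which targets latent TGF-beta to fibronectin and fibrillin in the matrix, had 8.97 and 8.64 in bright PNX-dnFGFR cells, 9.49 and 9.38 in bright PNX cells and 9.56 and 9.40 in bright SHAM cells. Its dim arrays had 9.77 to 10.27, with a median of 9.86. The subsets did not overlap, and the bright PNX-dnFGFR arrays were the lowest of all 12. The difference was -0.68 ± 0.10 SE (adjusted p = 0.00041). PNX-dnFGFR gave -1.08 (adjusted p = 0.0013), SHAM gave -0.61 (adjusted p = 0.034), and PNX, which did not pass, gave -0.35 (adjusted p = 0.20). The SHAM call was lost without bright SHAM replicate 1 (adjusted p = 0.082) or 2 (adjusted p = 0.17), without dim SHAM replicate 2 (adjusted p = 0.18) and without either dim PNX array (adjusted p = 0.052), as well as with the groups compared alone (adjusted p = 0.11). A further probe set above the filter on 5 arrays gave -0.79 (adjusted p = 0.0064), and the remaining one, above it on 0 arrays, gave -0.49 (adjusted p = 0.079). In PNX-dnFGFR they gave -1.16 (adjusted p = 0.020) and -0.82 (adjusted p = 0.11), and in SHAM -0.89 (adjusted p = 0.086) and -0.52 (adjusted p = 0.36).

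Ltbp4 binds latent TGF-beta and takes part in elastic fibre assembly, and mice with reduced Ltbp4 have enlarged airspaces. Its signal was 11.11 and 11.24 in bright PNX-dnFGFR cells, 11.67 and 11.91 in bright PNX cells and 11.91 and 12.05 in bright SHAM cells. The dim arrays had 11.78 to 12.09, with a median of 12. Only the bright PNX-dnFGFR arrays lay well below the rest. Bright PNX and SHAM arrays overlapped with the range of all dim arrays, though not with the dim arrays of their own condition. The difference over conditions was -0.33 ± 0.09 SE (adjusted p = 0.011). PNX-dnFGFR passed (-0.74, adjusted p = 0.0045), while PNX had -0.14 (adjusted p = 0.57) and SHAM had -0.10 (adjusted p = 0.69). Ltbp3, which also binds latent TGF-beta, had 9.97 to 10.32 (median 10.14) on bright and 9.58 to 9.84 (median 9.73) on dim arrays. These ranges did not overlap, and the difference was 0.41 ± 0.08 SE (adjusted p = 0.0022). Of its other probe sets, 1 above the filter on all 12 arrays gave 0.27 (adjusted p = 0.048) and 1 above it on 0 arrays gave 0.68 (adjusted p = 0.019). It passed in PNX (0.66, adjusted p = 0.0087), though its adjusted p was 0.052 with bright PNX replicate 1 left out and 0.057 with dim PNX replicate 2 left out. The fit on the groups compared alone also ended that call (adjusted p = 0.064), and in PNX the other probe sets gave 0.39 (adjusted p = 0.15, above the filter on 12 arrays) and 1.36 (adjusted p = 0.023, above it on 0). The difference was 0.26 in PNX-dnFGFR and 0.29 in SHAM (adjusted p = 0.17 in each).

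Within single conditions, 7 of 10 members passed in PNX-dnFGFR (3 higher and 4 lower in bright cells), where 34.4% of all genes did (21% higher and 13.5% lower). In PNX, 5 of 10 passed (4 higher and 1 lower), where 18.4% of all genes did (11.4% higher and 7.07% lower), and in SHAM 4 of 10 (3 higher and 1 lower), where 19% did (11.5% higher and 7.53% lower). Whether the subset difference itself changed with the condition was tested as a difference of differences, and 0 of 10 members passed in any of the 3 pairs of conditions by limma. For PNX-dnFGFR against SHAM, where 0.126% of all genes passed, 4 of 10 had an unadjusted p below 0.05, as did 12.7% of all genes. Ltbp2 had the largest such value, -2.19 ± 0.63 SE (adjusted p = 0.21). For PNX against SHAM, where 0% of all genes passed, 1 of 10 members (and 4.47% of all genes) had an unadjusted p below 0.05, again Ltbp2 (-1.86 ± 0.63 SE, adjusted p = 1). For PNX-dnFGFR against PNX, where 0% passed, 2 of 10 members and 8.21% of all genes did, namely Ltbp1 (-0.73 ± 0.24 SE, adjusted p = 0.51) and Ltbp4 (-0.60 ± 0.21 SE, adjusted p = 0.53).

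The promoter windows of 4 members are given because they stand for the patterns above: Tgfb2 and Ltbp2 were higher in bright cells, Ltbp1 was lower and Tgfb1 did not differ detectably. RefSeq windows on build GRCm38.p6, from 250 bases before to 50 bases after a gene start, were matched by symbol for 8 of the 10 genes (all but Tgfb3 and Tgfbr3), with 12 windows in all. The windows lie at chr1:186705940-186706239 on the minus strand for Tgfb2, chr12:84876442-84876741 on the minus strand for Ltbp2, chr17:75005279-75005578 on the plus strand for the upstream start of Ltbp1 and chr7:25686752-25687051 on the plus strand for Tgfb1. Capitals mark the GC box GGGCGG, the TATA box TATAAA and the cAMP response element TGACGTCA, on either strand.
Tgfb2: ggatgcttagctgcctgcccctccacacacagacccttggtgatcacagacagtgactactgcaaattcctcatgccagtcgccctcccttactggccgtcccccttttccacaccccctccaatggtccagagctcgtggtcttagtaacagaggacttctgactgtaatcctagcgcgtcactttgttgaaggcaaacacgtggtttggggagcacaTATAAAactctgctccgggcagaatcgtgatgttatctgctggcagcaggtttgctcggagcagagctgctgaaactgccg
Ltbp2: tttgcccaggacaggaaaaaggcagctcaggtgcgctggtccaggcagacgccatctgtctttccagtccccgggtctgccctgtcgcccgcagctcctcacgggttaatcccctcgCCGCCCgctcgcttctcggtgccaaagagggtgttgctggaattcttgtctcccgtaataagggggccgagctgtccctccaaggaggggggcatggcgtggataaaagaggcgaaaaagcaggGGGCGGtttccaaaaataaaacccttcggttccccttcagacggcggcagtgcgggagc
Ltbp1: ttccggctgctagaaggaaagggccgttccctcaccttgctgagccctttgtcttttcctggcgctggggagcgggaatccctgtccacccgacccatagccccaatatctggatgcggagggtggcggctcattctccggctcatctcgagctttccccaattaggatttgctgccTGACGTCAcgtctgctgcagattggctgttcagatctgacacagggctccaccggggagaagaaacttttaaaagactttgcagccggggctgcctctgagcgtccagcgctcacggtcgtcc
Tgfb1: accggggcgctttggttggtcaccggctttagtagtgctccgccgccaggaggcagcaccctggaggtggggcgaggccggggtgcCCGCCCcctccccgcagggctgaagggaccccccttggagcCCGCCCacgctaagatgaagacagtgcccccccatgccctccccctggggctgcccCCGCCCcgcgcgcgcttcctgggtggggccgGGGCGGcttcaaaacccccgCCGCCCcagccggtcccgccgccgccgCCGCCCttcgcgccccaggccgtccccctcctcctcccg
In all, 6 motifs were searched on both strands, the others being the AP-1 site TGANTCA, the palindromic SMAD box GTCTAGAC and the shorter SMAD motif GTCTG, which lies within no other motif searched. The Tgfb2 window held 1 TATA box, starting at -31 from the gene start, and 0 GC boxes, the Ltbp2 window 2 GC boxes, and the Tgfb1 window 6 GC boxes. The Ltbp1 window held 1 cAMP response element, starting at -73, whereas the window of the other Ltbp1 start, not shown, held 0. The GTCTG motif had 2 matches in the Tgfb2 window, 3 in that of Ltbp2, 1 in that of Ltbp1 and 0 in that of Tgfb1. GC content was 54.3% for Tgfb2, 61.0% for Ltbp2, 58.7% for Ltbp1 and 77.0% for Tgfb1, against a median of 52.7% over 32851 promoters. Of the 8 matched genes, 4 had a GC box in some window (35.7% of all promoters), 1 a TATA box (13.6%), 1 a cAMP response element (1.79%), 1 an AP-1 site (7.81%, Ltbp3), 0 the SMAD box (0.213%) and 6 the GTCTG motif (49.6%). Several genes had more than 1 window, so these counts per gene are not on the same footing as the shares per promoter.

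The conditions were compared within each subset to ask which of the genes differed after pneumonectomy, with and without the dominant-negative FGF receptor. A single member passed in any of these comparisons. Ltbp4 was lower in bright PNX-dnFGFR cells, at 11.11 and 11.24, against 11.91 and 12.05 in bright SHAM cells (-0.80 ± 0.15 SE, adjusted p = 0.024). That made 1 of 10 members where 5.2% of all genes passed. The arrays of Ltbp4 did not overlap, and neither did those of Tgfb2, Tgfb3, Tgfbr2, Tgfbr3, Ltbp1 and Ltbp2, which did not pass. The call was lost without either bright PNX-dnFGFR array (-0.74, adjusted p = 0.12, and -0.87, adjusted p = 0.09) and without either bright SHAM array (-0.87, adjusted p = 0.068, and -0.73, adjusted p = 0.17). The summed linear signal of 9 endothelial markers was 400 to 544 on bright PNX-dnFGFR and 610 to 686 on bright SHAM arrays. Of these 9, Cldn5 and Emcn were below the filter and were not tested, and 0 of the 7 tested passed (median difference -1.02, against 0.02 over all genes). Mesothelial markers summed to 448 to 773 on bright PNX-dnFGFR and 328 to 414 on bright SHAM arrays, and 0 of 4 tested passed. In the same order of groups, macrophage and dendritic markers summed to 1360 to 1646 against 1701 to 1895. Smooth muscle and pericyte markers summed to 306 to 313 against 221 to 272, and fibroblast markers to 16104 to 16641 against 15207 to 15596. The epithelial, lymphocyte and platelet sums overlapped between these groups. The part of these cell types in the Ltbp4 difference was not tested.

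Of the members in bright PNX-dnFGFR against bright SHAM cells, 6 of 10 had an unadjusted p below 0.05, as did 22.8% of all genes. Apart from Ltbp4 they were Ltbp1 (-0.67 ± 0.17 SE, adjusted p = 0.055), Tgfb3 (-0.71 ± 0.22 SE, adjusted p = 0.087), Tgfb2 (1.28 ± 0.40 SE, adjusted p = 0.093), Tgfbr2 (-0.59 ± 0.19 SE, adjusted p = 0.097) and Ltbp2 (-1.28 ± 0.45 SE, adjusted p = 0.13). None of these 5 passed in the main fit. Ltbp1 passed with the stricter filter (adjusted p = 0.036), another quantile normalization (0.046), the variance trend (0.029) or low signals set to the filter (0.04). Tgfb2 passed with low signals set to the filter (adjusted p = 0.037). In dim cells the same comparison had 0 of 10 members past the adjusted threshold by limma (0.0181% of all genes) and 0 at an unadjusted p below 0.05 (9.52% of all genes). Ltbp4 in dim cells was -0.17 (95% interval -0.50 to 0.17). As the mean over both subsets 0 of 10 passed by limma (2% of all genes) and 4 had an unadjusted p below 0.05 (21.6% of all genes), with Ltbp4 nearest at -0.49 ± 0.11 SE (adjusted p = 0.051). Ltbp4 passed there with the stricter filter (adjusted p = 0.031), averaged probe sets (0.041), the variance trend (0.017) or low signals set to the filter (0.036). With the variance trend Ltbp1 passed as well (-0.44, adjusted p = 0.049).

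**Figure D3:**
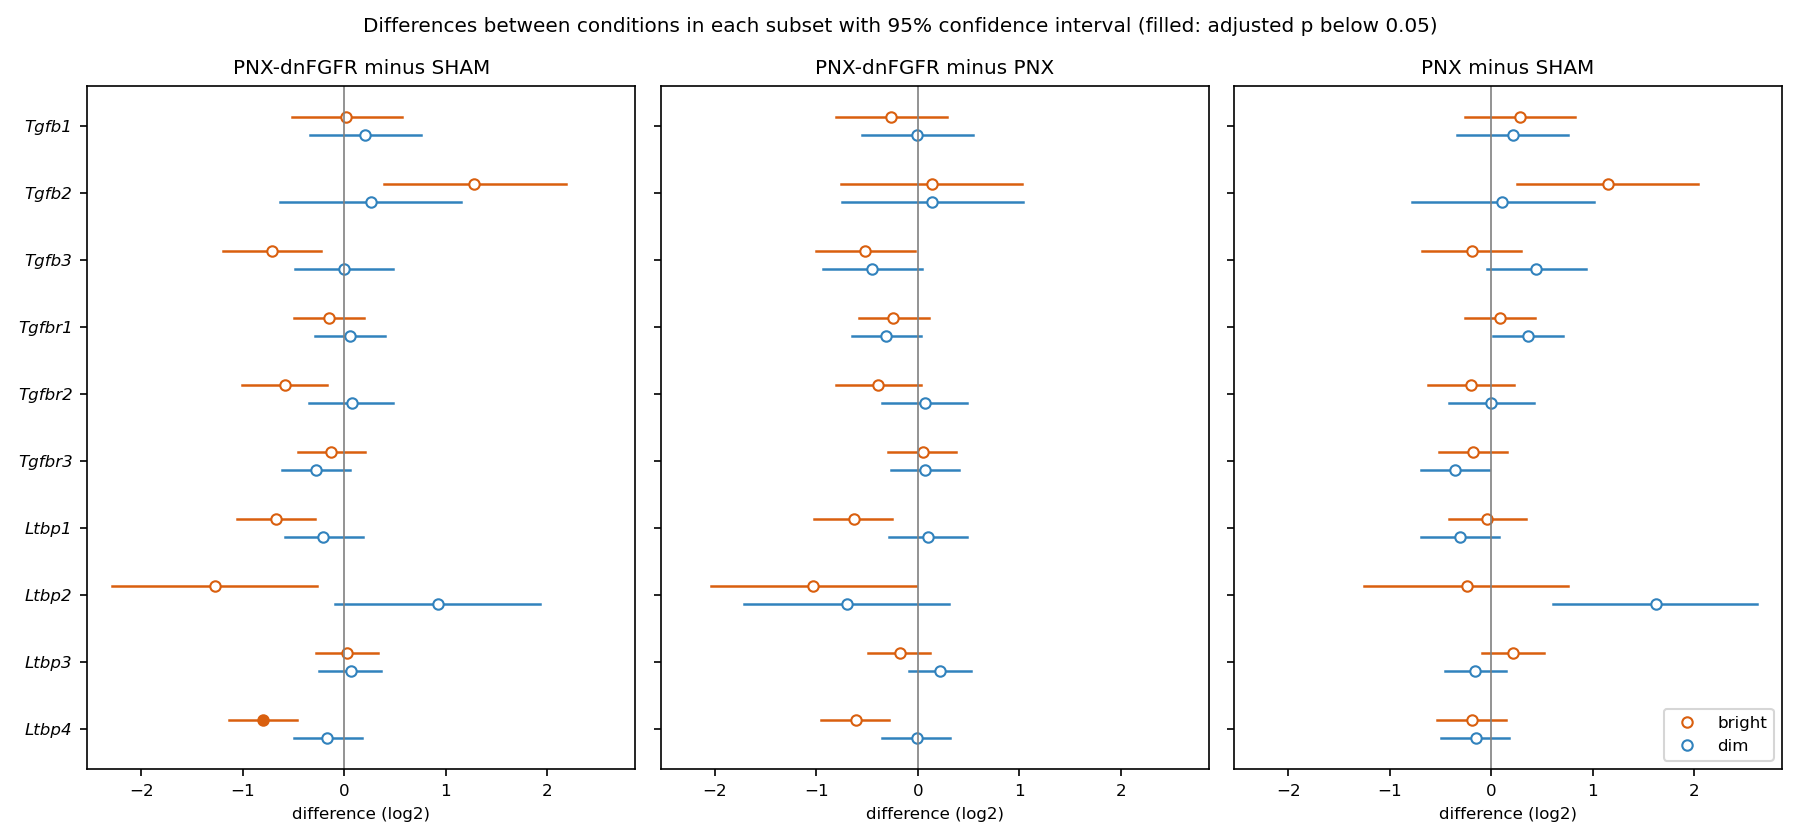
Differences in log2 signal between conditions for each TGF-beta gene, in bright and in dim cells, with 95% intervals; filled symbols have an adjusted p below 0.05. The filled symbol is Ltbp4 in bright PNX-dnFGFR against bright SHAM cells, at -0.80.

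For PNX-dnFGFR against PNX, 0 of 10 members passed by limma in bright cells (0.00903% of all genes), in dim cells (0%) or as the mean over both (0%). At an unadjusted p below 0.05 there were 4 in bright cells (12.6% of all genes), 0 in dim cells (7.79%) and 4 in the mean (12.5%). In bright cells Ltbp1 had -0.63 ± 0.17 SE (adjusted p = 0.16) and Ltbp4 -0.61 ± 0.15 SE (adjusted p = 0.15). Ltbp4 was lower on both bright PNX-dnFGFR arrays than on both bright PNX arrays, and so were Ltbp1, Ltbp2, Ltbp3, Tgfb3, Tgfbr1 and Tgfbr2. None of these differences passed, and the share of all genes separated in this way was not counted.

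For PNX against SHAM, 0 of 10 members passed by limma in bright cells (0.00903% of all genes), in dim cells (0.0452%) or as the mean over both (0.144%). At an unadjusted p below 0.05 there were 1 in bright cells (8.24% of all genes), 3 in dim cells (12.2%) and 1 in the mean (16.1%). Tgfb2 in bright cells was 7.0 and 6.16 in PNX, against 5.77 and 5.10 in SHAM (1.15 ± 0.40 SE, adjusted p = 0.52). Ltbp2 in dim cells was 6.87 and 6.09 in PNX, against 4.54 and 5.18 in SHAM (1.62 ± 0.45 SE, adjusted p = 0.22). Neither difference passed. The arrays did not overlap in either case, but the same held for other members, such as Tgfb3 and Tgfbr3 in both subsets. For Tgfb1 the 95% interval was -0.26 to 0.83 in bright and -0.34 to 0.76 in dim cells. The comparisons of PNX-dnFGFR and of PNX with SHAM share the SHAM arrays.

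The other genes of the pathway were read as lists. These lists were chosen with earlier results of these data known, so their counts are description and no independent test. Of 13 genes of latent complex activation, 9 were tested and 4 were higher and 3 lower in bright cells over the conditions, where 28.5% of all genes were higher and 19.3% lower (median -0.01, against 0.05 over all genes). Mmp14, a membrane-bound metalloproteinase, was higher by 1.0 ± 0.13 SE (adjusted p = 0.00022), and so was the integrin subunit Itgav, by 0.78 (adjusted p = 0.0011). Tgm2, a transglutaminase that crosslinks LTBPs to matrix, was lower (-0.54, adjusted p = 0.00057), and so was Furin, the protease that cleaves the TGF-beta precursor (-0.41, adjusted p = 0.0085). Itgb6 was below the filter, and Itgb8, Thbs1 and Lrrc32 were not analysed here.

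Of 11 matrix partners and ligand-binding proteoglycans, 9 were tested, with 3 higher and 3 lower, against 28.5% and 19.3% of all genes (median -0.15). Dcn, the proteoglycan decorin that binds TGF-beta, had 11.97 to 12.21 on bright and 5.72 to 8.48 on dim arrays (5.05 ± 0.49 SE, adjusted p = 3.4e-05). Aspn, a related proteoglycan, was higher by 2.86 ± 0.11 SE (adjusted p = 1.7e-07), or by 1.47 with low signals set to the filter. Adamtsl2, which binds LTBP1 and fibrillin, was lower (-1.31 ± 0.19 SE, adjusted p = 0.00037), as was the elastic fibre protein Emilin1 (-0.54, adjusted p = 0.0037).

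All 7 accessory receptors were tested, with 3 higher and 1 lower (median 0.29), a share close to the 47.8% of all genes that passed. The pseudoreceptor Bambi was higher by 1.69 ± 0.15 SE (adjusted p = 2.1e-05) and the coreceptor Cd109 by 2.68 ± 0.19 SE (adjusted p = 4.6e-06), or 1.03 with low signals set to the filter; both are known to dampen TGF-beta signalling. Acvr1, a type I receptor of the BMP branch, was higher by 0.60 (adjusted p = 0.00085) and Acvrl1, a type I receptor best known from endothelium, was lower (-0.53, adjusted p = 0.0028). All 10 Smads and regulators were tested, with 3 higher and 1 lower (median 0.01), a share no higher than the 47.8% of all genes that passed. The corepressor Skil was higher by 0.67 ± 0.11 SE (adjusted p = 7e-04), Smad2 by 0.30 (adjusted p = 0.019) and the corepressor Tgif1 by 0.44 (adjusted p = 0.041), whereas the inhibitory Smad7 was lower (-0.50 ± 0.12 SE, adjusted p = 0.0072).

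Of 23 transcripts known to rise with TGF-beta in fibroblasts, 19 were tested, with 11 higher and 4 lower in bright cells, against 28.5% and 19.3% of all genes (median 0.41). Ldlrad4, a feedback inhibitor of the pathway, had 7.69 to 8.13 on bright and 4.99 to 5.51 on dim arrays (2.58 ± 0.09 SE, adjusted p = 1.1e-07). The matricellular gene Postn was higher by 2.85 ± 0.14 SE (adjusted p = 5.4e-07), or by 2.21 with low signals set to the filter, and Cthrc1 by 3.51 ± 0.14 SE (adjusted p = 1.5e-07), or 1.44 with low signals set to the filter. Nox4, an oxidase induced by TGF-beta, was lower, at 5.63 to 7.57 on bright and 9.24 to 9.81 on dim arrays (-2.44 ± 0.17 SE, adjusted p = 4.7e-06). Further members, chosen after their values were seen, also went in opposite directions, with Tgfbi (2.58) and Acta2 (2.15) higher and Tnc (-1.60) and Ccn2 (-0.74) lower.

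**Figure D4:**
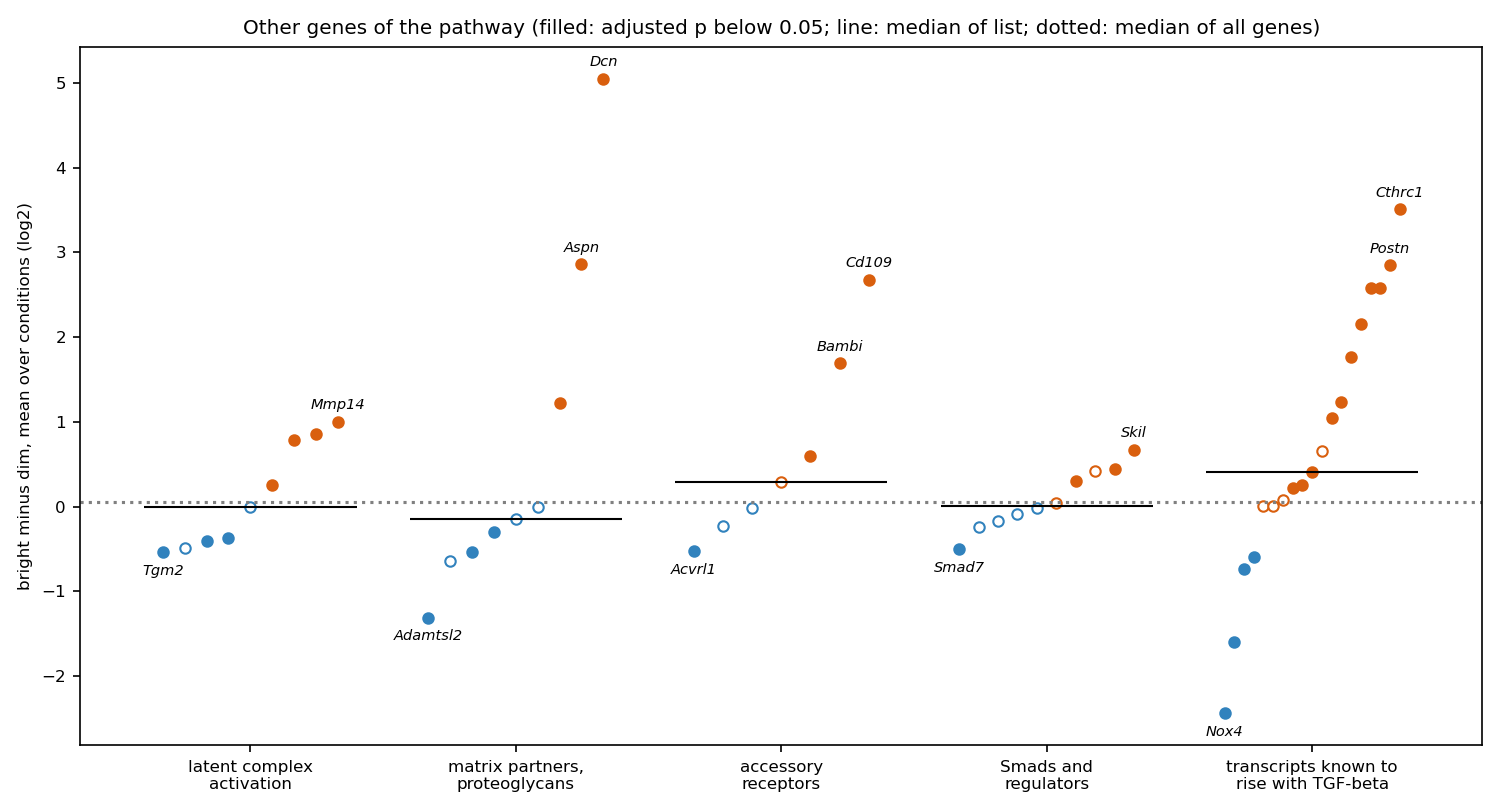
Difference in log2 signal between bright and dim cells, as the mean over conditions, for the tested genes of 5 pathway lists; each point is a gene, filled where the adjusted p is below 0.05, short lines are list medians, the dotted line is the median of all genes, and the extremes are named. Each list holds genes above and below 0, with Dcn highest at 5.05 and Nox4 lowest at -2.44.

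Between conditions, 5 of these 19 transcripts passed in bright PNX-dnFGFR against bright SHAM cells, 4 higher and 1 lower, where 5.2% of all genes passed. Cthrc1 had 7.02 and 7.58 in bright PNX-dnFGFR and 4.32 and 4.73 in bright SHAM cells (2.77 ± 0.24 SE, adjusted p = 0.0039). Both SHAM values are below the filter, and with low signals set to it the difference was 2.20 (adjusted p = 0.00066). Postn (1.58, adjusted p = 0.014), the metalloproteinase inhibitor Timp1 (1.53, adjusted p = 0.037) and the crosslinking enzyme Lox (1.31, adjusted p = 0.010) were also higher, and Nox4 was lower (-1.41, adjusted p = 0.034). In PNX against SHAM, Cthrc1 passed in bright cells, at 7.20 and 7.27 in PNX and 4.32 and 4.73 in SHAM (2.71 ± 0.24 SE, adjusted p = 0.0096), or 2.13 with low signals set to the filter (adjusted p = 0.0042). Cthrc1 also passed there as the mean over both subsets (1.56, adjusted p = 0.014), where 0.144% of all genes passed. For the difference of differences in PNX-dnFGFR against SHAM, 1 of these 19 transcripts passed, with a higher value in PNX-dnFGFR, where 0.126% of all genes passed. Of the other lists, Aspn (-1.12, adjusted p = 0.020) and the corepressor Ski (-0.54, adjusted p = 0.049) were lower in bright PNX-dnFGFR than in bright SHAM cells. The fibrillin Fbn2 was higher there by 2.33 (adjusted p = 0.028), but by 0.59 with low signals set to the filter (adjusted p = 0.11). As the mean over both subsets, Timp1 (1.94, adjusted p = 0.014), Cthrc1 (1.55, adjusted p = 0.0075), Postn (0.88, adjusted p = 0.043) and Lox (0.68, adjusted p = 0.040) were higher and Timp3 lower (-0.51, adjusted p = 0.044) in PNX-dnFGFR than in SHAM, where 2% of all genes passed. All dim arrays of Cthrc1 and Postn are below the filter, and with low signals set to it these means were 1.10 for Cthrc1 (adjusted p = 0.0066) and 0.79 for Postn (adjusted p = 0.031).

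Likeness was measured by the root mean square difference over the 12 arrays, after each gene was centred on its own mean. The genes closest to a member were sought with the 10 members themselves left out. For Tgfb3 they were Nav1 (0.20), Adam33 (0.22) and Prrt2 (0.26), where the centred signal of Tgfb3 itself had a root mean square of 1.25. For Tgfb2 they were Tpm2 (0.26), Serpinb1a (0.31) and Nfkbie (0.32), against 1.19 for Tgfb2 itself. For Ltbp2 they were Wnt5a (0.39), Prrt2 (0.51) and Kcne4 (0.52), against 1.33 for Ltbp2 itself, and for Ltbp1 they were Mettl24 (0.12), Mir99ahg (0.12) and Peak1 (0.13), against 0.43. All of these arrays share the split into bright and dim cells.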

How the data were processed

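Gene expression was measured on 12 arrays, 2 for each of 6 groups, from RNA of sorted cells amplified before hybridization. The deposited values are log2 signals, made with RMA per the submitters' processing notes; which version and which options is not given in the sources used here. No further normalization was applied. Of 45141 probe sets, 104 controls were left out; 28898 had 1 gene in the array's annotation, 551 several and 15588 none, and only those with 1 gene were used. The probe set with the highest mean stood for a gene, and a gene was tested where 2 or more arrays exceeded log2 5.1, the overall median signal.

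limma 3.58.1 in R 4.3.3 was fitted with 1 mean per group, and p-values of its moderated test received the Benjamini-Hochberg adjustment over 11073 genes in each of 16 contrasts. The fit had 6 residual and 3.31 prior degrees of freedom. The labels call the replicates biological but do not say whether each is a separate animal, so p-values measure the spread between these samples, which may be technical, and the number of arrays limits the precision. Same-numbered samples did not deviate together in every case (correlation 0 to 0.13 between subsets of a condition and -0.09 to 0.35 between conditions of a subset), so the numbers were not used as pairs. The members and gene lists were chosen with earlier results of these data known. Named list genes are up to 4 per list, with the smallest adjusted p for bright against dim cells among those that passed. Every list gene that passed between conditions, within a subset or as the mean over subsets, is named as well. For 9 members the 3 most similar genes outside the members were found, and those of 4 members are given. Pdgfra and Fgfr2 were always taken; Fgfr2 was 1.45 ± 0.21 SE higher in bright cells (adjusted p = 0.0004). The promoter motifs were chosen after the data had been seen. The fit was tested on simulated data.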

Additional observations from a re-analysis of the deposited data

How the results depend on the processing

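Each result was recomputed without the filter, with a stricter filter, a variance trend, another quantile normalization, averaged probe sets, the arrays of the groups compared alone, replicate blocks, low signals set to the filter, and each array left out in turn. For PNX-dnFGFR against SHAM as the mean over subsets, with 0 members passing, 1 passed with the stricter filter, averaged probe sets, low signals set to the filter or the replicate block by number, in each case Ltbp4. With the variance trend 2 passed, Ltbp4 and Ltbp1. In bright cells, with 1 passing (Ltbp4), 2 passed with the stricter filter, another quantile normalization or the variance trend (Ltbp4 and Ltbp1). With low signals set to the filter 3 passed (Ltbp4, Ltbp1 and Tgfb2). For bright against dim cells in PNX, with 5 passing, 3 passed with the groups compared alone. With arrays left out in turn the counts were 8 to 9 for bright against dim cells over the conditions, 5 to 7 in PNX-dnFGFR, 2 to 5 in PNX and 2 to 4 in SHAM, 0 to 1 for PNX-dnFGFR against SHAM as the mean and 0 to 2 in bright cells. Tgfbr2 in PNX-dnFGFR was 0.01 (adjusted p = 0.98) by a probe set that was above the filter on 0 arrays. With the replicate block by number, Ltbp4 in PNX-dnFGFR against SHAM as the mean had an adjusted p of 0.045 and Tgfbr1 for bright against dim cells in PNX-dnFGFR 0.053. With the replicate block within condition, Tgfbr1 had 0.10 in PNX-dnFGFR and 0.10 in PNX, and Ltbp1 0.063 in SHAM. Over all genes, PNX-dnFGFR against SHAM as the mean had 221 calls, against 119 without the filter, 401 with the stricter filter, 457 with the variance trend and 386 with low signals set to the filter. The cause of these changes was not tested. Signals below the filter, such as Tgfb2 in dim cells, limit how far a fold can be read.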
